A study of Mus musculus with 36 samples.

Results

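Chaperones and co-chaperones are the genes of the heat shock protein families, their J protein and Bag partners and the cytosolic chaperonin. They were read here in mouse induced pluripotent stem (iPS) and embryonic stem (ES) cells from a one-colour Illumina bead array. A gene was a member where its symbol on the array starts with Dnaja, Dnajb, Dnajc, Hspa, Hspb, Hspd, Hspe, Hsph, Hsp90 or Bag followed by a number, or is Cct2 to Cct8, Tcp1, Stip1 or Ahsa1. Of 15731 genes with a measured probe, 76 were members, each read by its brightest measured probe. Of these 76 genes, 60 stood above background on at least 4 of the 36 arrays and were tested, and 45 did so on all 36. The other 16 are listed at the end of the gene families.

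The groups were 11 OSKT clones, made from mouse embryonic fibroblasts (MEFs) by overexpressing Oct4, Sox2, Klf4 and Tbx3, and 8 OSE clones, made with Oct4, Sox2 and Esrrb. A further 11 OSK clones were made with Oct4, Sox2 and Klf4. The ES cells were 2 replicates of the line D3 on MEF medium and 4 replicates of the line R1 on mESC medium. All iPS clones therefore share MEF origin and overexpressed Oct4 and Sox2, each sample is labelled as 1 clone, and D3 differs from R1 in line and in medium. The labels give no medium, feeder layer, passage or sex for the iPS clones, and do not say whether the ES replicates were separate cultures.

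Within the iPS sets, 6 of 55 pairs of OSKT clones, 3 of 28 of OSE and 7 of 55 of OSK were no farther apart than R1 replicates. Averaging such arrays leaves 6 OSKT, 5 OSE, 6 OSK, 1 D3 and 1 R1 sample, so the p-values measure the spread between arrays that may not be independent. In that averaged fit R1 and D3 have 1 sample each, assumed to vary like the iPS clones, from which its whole spread comes. Calls against R1 that are said below to hold or to be lost in that fit rest on this assumption. Between 8675 and 9720 probes stood above background per array, and precision is limited by how many arrays a group has. The 13 tested pluripotency markers were above background in every group, with a mean log2 signal of 10.98 in OSKT, 10.42 in OSE, 10.89 in OSK, 11.40 in D3 and 11.61 in R1. Of 21 tested fibroblast markers, the mean was 9.74 in OSKT (9.36 to 10.26), 10.43 in OSE (9.73 to 10.78), 9.80 in OSK (9.29 to 10.33), 8.58 in D3 and 9.40 in R1. Of 24 fibroblast markers with a measured probe, 4 stood above background on no OSKT array, 3 on no OSE array, 4 on no OSK array, 9 on no D3 array and 5 on no R1 array, with Col5a2, Lum and Postn among them in every group. OSK and OSKT clones 1 to 4 differed from clones 5 to 11 in these lists: the fibroblast mean was 10.11 against 9.52 in OSKT and 10.24 against 9.55 in OSK, and the mean of 8 trophoblast, endoderm and neural markers was 8.32 against 7.08 and 8.29 against 7.39. In whole cultures, fewer cells of a type and less RNA per cell cannot be told apart.

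Chaperones bind unfolded stretches of proteins and release them in cycles of ATP binding and hydrolysis. Hsp70 proteins take up clients handed over by J proteins, which switch on the Hsp70 ATPase, and nucleotide exchange factors such as the Bag and Hsp110 proteins let the client go. Hsp90 finishes the folding of kinases and receptors, the TRiC chaperonin folds actin and tubulin in a closed ring, and small heat shock proteins hold unfolded proteins until the others act. Heat shock factor 1 raises the cytosolic chaperones through heat shock elements, and the unfolded protein response of the endoplasmic reticulum (ER) raises the ER chaperones through ER stress elements. Pluripotent stem cells are known for a high capacity to fold proteins, with TRiC much studied in this setting.

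Promoter windows of 300 bases, running 250 bases before to 50 after the transcription start, were taken from RefSeq (GRCm38.p6), and 62 of the 76 members had an entry. They are shown for a pair of ER chaperones that differed between iPS clones and R1, and for a pair of heat shock genes that moved in opposite directions in OSE clones. In the windows of Hspa5 (chr2:34771840-34772139, plus strand) and Hsp90b1 (chr10:86705395-86705694, minus strand), capitals mark the ER stress element on either strand, which is CCAAT and CCACG with 9 bases of any kind between them and so holds the CCAAT box.
Hspa5: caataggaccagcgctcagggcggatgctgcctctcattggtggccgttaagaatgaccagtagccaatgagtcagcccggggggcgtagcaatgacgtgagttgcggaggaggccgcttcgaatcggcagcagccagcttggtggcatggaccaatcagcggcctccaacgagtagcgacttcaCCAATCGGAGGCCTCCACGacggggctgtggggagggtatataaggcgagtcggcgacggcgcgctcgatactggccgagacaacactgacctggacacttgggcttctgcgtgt
Hsp90b1: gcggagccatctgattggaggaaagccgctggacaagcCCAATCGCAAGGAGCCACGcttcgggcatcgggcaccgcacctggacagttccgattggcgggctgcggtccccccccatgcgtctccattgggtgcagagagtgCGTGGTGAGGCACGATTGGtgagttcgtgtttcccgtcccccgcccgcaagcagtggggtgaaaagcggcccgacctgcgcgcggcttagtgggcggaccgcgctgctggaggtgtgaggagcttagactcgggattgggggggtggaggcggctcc
The element occurred in a window of 37 of 27025 genes of this table (0.137%) and in 3 of the 62 members with a window (4.84%), which were Hspa5, Hsp90b1 and Dnajc3, and Hsp90b1 held it at 2 places. In the windows of Hsph1 (chr5:149636287-149636586, minus strand) and Hspb1 (chr5:135887669-135887968, plus strand), capitals mark the heat shock element core in its forms GAANNTTC and TTCNNGAA, each of which reads the same on both strands.
Hsph1: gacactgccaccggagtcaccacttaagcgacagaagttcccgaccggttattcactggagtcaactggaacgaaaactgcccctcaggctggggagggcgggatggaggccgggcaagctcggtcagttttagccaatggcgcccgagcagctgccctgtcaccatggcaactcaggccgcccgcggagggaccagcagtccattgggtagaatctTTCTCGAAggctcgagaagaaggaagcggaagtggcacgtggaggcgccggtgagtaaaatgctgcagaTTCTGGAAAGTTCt
Hspb1: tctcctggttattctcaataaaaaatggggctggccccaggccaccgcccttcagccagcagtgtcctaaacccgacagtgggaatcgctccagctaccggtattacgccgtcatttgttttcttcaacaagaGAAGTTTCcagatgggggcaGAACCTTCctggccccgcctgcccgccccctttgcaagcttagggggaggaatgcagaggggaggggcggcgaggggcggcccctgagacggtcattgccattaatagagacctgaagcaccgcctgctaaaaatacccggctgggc
Hsph1 held 3 matches, of which the last pair overlap in the letters GAA, and Hspb1 held 2. The core occurred in 16 of the 62 members with a window (25.8%), against 17% of all genes, and a CCAAT box in 25 of the 62 members (40.3%), against 41.1% of all genes. Over single windows, of which a gene can have several, the shares were 15.1% for the core and 37.4% for the CCAAT box. A match is a description of the letters in the window and not a bound site.

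Values below are normalised log2 signals with the SD between arrays. The 95% intervals take the SE of the fit. A gene is said to have changed, risen or fallen where its Benjamini-Hochberg adjusted p, from limma over 10533 features, was under 0.05, and a difference is given as first group minus second with its standard error (SE). Genes are named by a fixed list of well-known members and by the 6 highest and 6 lowest that passed in each comparison.

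Between OSKT and OSK clones, which differ by the added Tbx3, 20 of the 60 members changed (33.3%, against 35.5% of all features), 10 higher and 10 lower (all features 19.5% and 16%). Between OSE and OSK clones, in which Esrrb takes the place of Klf4, 26 changed (43.3%, against 45.8%), 12 higher and 14 lower (all features 23.2% and 22.6%). OSKT clones had 26 changed members against R1 (43.3%, against 54.3% of all features), 15 higher and 11 lower (all features 26.4% and 27.9%). OSE clones had 35 against R1 (58.3%, against 58.7%), 18 higher and 17 lower (all features 28.7% and 29.9%). OSK clones had 31 against R1 (51.7%, against 53.8%), 19 higher and 12 lower (all features 25.8% and 28%). In D3 against R1, 4 members changed (6.67%, against 9.73% of all features), 1 higher and 3 lower (all features 4.63% and 5.1%). The comparisons with R1 share its 4 arrays, and those with OSK its 11 clones. Counts of families and gene lists below are to be read beside these shares of all features. In this fit the members' share was at or below that of all features in each comparison. Over the other settings it lay above that of all features in 20 of 70 counts, as in OSE against R1 with array weights (78.3%, against 71.5%) and in OSE against OSK in the authors' scaled table (41.7%, against 40.3%).

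The split between higher and lower members depended on the scaling. With arrays scaled to a common median in place of quantile normalization it was 13 higher and 6 lower in OSKT against OSK and 18 and 7 in OSE against OSK. In the same scaling it was 8 and 15 in OSKT against R1, 16 and 20 in OSE against R1, and 6 and 19 in OSK against R1. Under this scaling the median difference of all features was -0.10 in OSKT and -0.12 in OSK against R1. In the authors' scaled table OSE against OSK gave 8 higher and 17 lower. The median difference of the members was small in every comparison, between -0.02 in OSKT against OSK and D3 against R1 and 0.08 in OSK against R1, with 0.00 and 0.03 for all features in the first pair and 0.01 in the last.

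**Figure D1:**
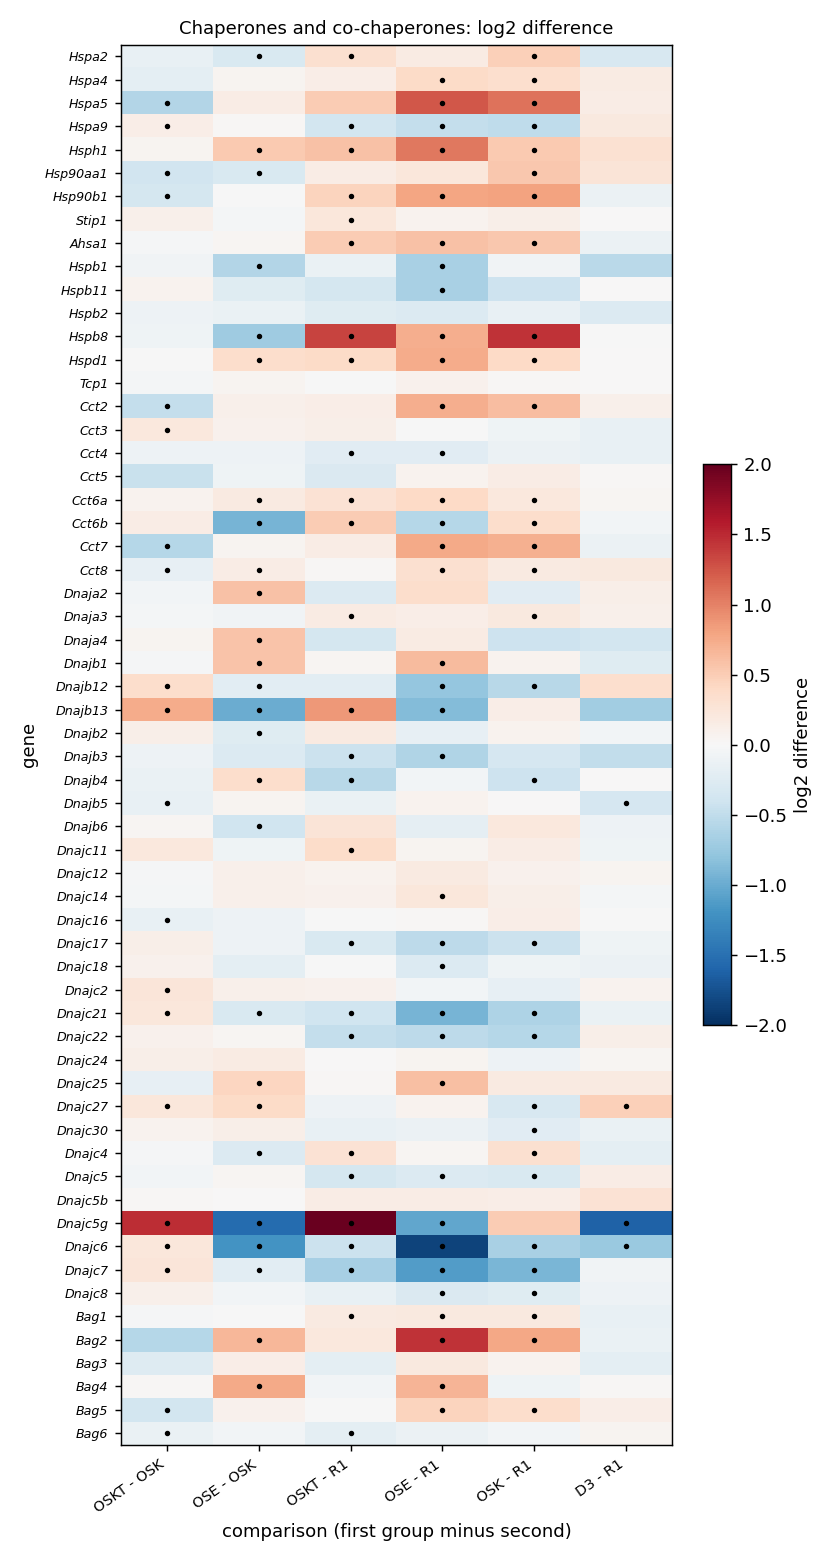
Log2 differences (colour, first group minus second, scale from -2 to 2) of the 60 tested members (rows, by family) in 6 comparisons (columns); a black dot marks an adjusted p under 0.05. Dnajc5g, Dnajc6, Bag2 and Hspb8 hold the strongest colours, and most members of the TRiC chaperonin stay pale.

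The 5 group means of a member spanned a median of 0.53 log2 units, against 0.62 for all features, and spanned more than 1 unit for 10 of the 60 members (16.7%, against 23.6%). The widest spans were those of Dnajc5g, whose lowest group, D3, was above background on neither array, and of Dnajc6 (1.85), Dnajb13 (1.74), Bag2 (1.59), Hspb8 (1.45) and Hspa5 (1.24). OSE clones had the highest mean for 22 members and the lowest for 16. This was not counted over all features, so it shows nothing particular to the members.

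A pair of ER chaperones, Hspa5 and Hsp90b1, was higher in OSE and OSK clones than in R1, with OSKT means between them. Hspa5, the BiP protein that is the Hsp70 of the ER, had a lowest, median and highest signal of 9.05, 9.60 and 10.06 in OSKT, 8.71, 10.56 and 10.81 in OSE, and 9.72, 10.09 and 10.89 in OSK, with 9.26 and 9.22 in D3 and 9.15, 8.92, 9.06 and 9.23 in R1. All 11 OSK clones lay above the R1 arrays, and so did the OSE clones apart from clone 8, which at 8.71 lay below them. The difference was 1.24 (SE 0.25, 2.36-fold, adjusted p = 6.9e-05) in OSE against R1 and 1.08 (SE 0.24, 2.12-fold, adjusted p = 0.000242) in OSK against R1. OSKT clones were lower than OSK by 0.58 on the log2 scale (SE 0.17, adjusted p = 0.00952), and each of its 11 clones lay under the mean of OSK. That mean joins 10.56 in OSK clones 1 to 4 and 9.95 in clones 5 to 11. Within clones 1 to 4 OSKT differed from OSK by -0.95 (adjusted p = 0.0412). Within clones 5 to 11 the difference was -0.37 (adjusted p = 0.189), and the ranges overlapped. The OSKT difference from R1 of 0.50 did not pass (adjusted p = 0.0747). None of the Hspa5 calls over all clones held with near-identical arrays averaged.

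Hsp90b1, the Grp94 protein that is the Hsp90 of the ER, had 12.35, 12.68 and 12.82 in OSKT, 12.84, 12.96 and 13.14 in OSE, and 12.64, 13.02 and 13.11 in OSK (lowest, median and highest). The ES cells had 12.24 and 11.92 in D3 and 12.21, 12.07, 12.35 and 12.13 in R1. OSE and OSK clones did not overlap with R1, and the OSKT range met it at its lower end. The difference from R1 was 0.45 in OSKT (SE 0.08, adjusted p = 2.55e-05), 0.78 in OSE (SE 0.09, adjusted p = 1.86e-09) and 0.80 in OSK (SE 0.08, adjusted p = 4.99e-10). OSKT was lower than OSK by 0.35 on the log2 scale (SE 0.06, adjusted p = 4.39e-05). The call of OSKT against OSK held with near-identical arrays averaged. In that fit R1 is 1 sample with no spread of its own, which limits the calls against it.

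Most of the other genes of the ER list did not rise with this pair. Of its 20 genes, the pair included, 12 were tested. Of these, 3 were higher and 3 lower against R1 in OSKT, 3 and 4 in OSE, and 4 and 3 in OSK. Hsp90b1 was among the higher genes in each comparison, and Hspa5 in OSE and OSK. The list's median difference was 0.08, 0.04 and 0.05 in these comparisons, where the median over all features was within 0.02 of 0. Herpud1, which serves the degradation of ER proteins, fell in all of them, by 1.46 in OSKT, 0.66 in OSE and 2.01 in OSK on the log2 scale (adjusted p = 1.18e-10, 0.000357 and 4.76e-14). Xbp1, a transcription factor of the unfolded protein response, fell by 0.52 in OSKT, 0.79 in OSE and 0.75 in OSK (adjusted p = 9.6e-07, 5.12e-10 and 6.42e-10). Hyou1, an ER nucleotide exchange factor for BiP, fell by 0.21 in OSKT (adjusted p = 0.0201) and 0.25 in OSK (adjusted p = 0.00485). Pdia4, a protein disulfide isomerase, rose with the pair, by 0.83 in OSKT, 0.43 in OSE and 0.40 in OSK (adjusted p = 1.17e-11, 1.84e-05 and 2.33e-05). In OSKT against OSK, Hspa5 and Hsp90b1 were the list's 2 lower genes, while 6 were higher, among them Herpud1 by 0.55 (adjusted p = 0.000142) and Pdia4 by 0.43 (adjusted p = 5.33e-07). In OSE against OSK 3 were higher and 2 lower, with Herpud1 higher by 1.35 (adjusted p = 1.18e-11) and Sdf2l1, a partner of ER J proteins, lower by 0.50 (adjusted p = 1.03e-05). D3 against R1 had Hyou1 higher and Sel1l and Xbp1 lower.

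**Figure D2:**
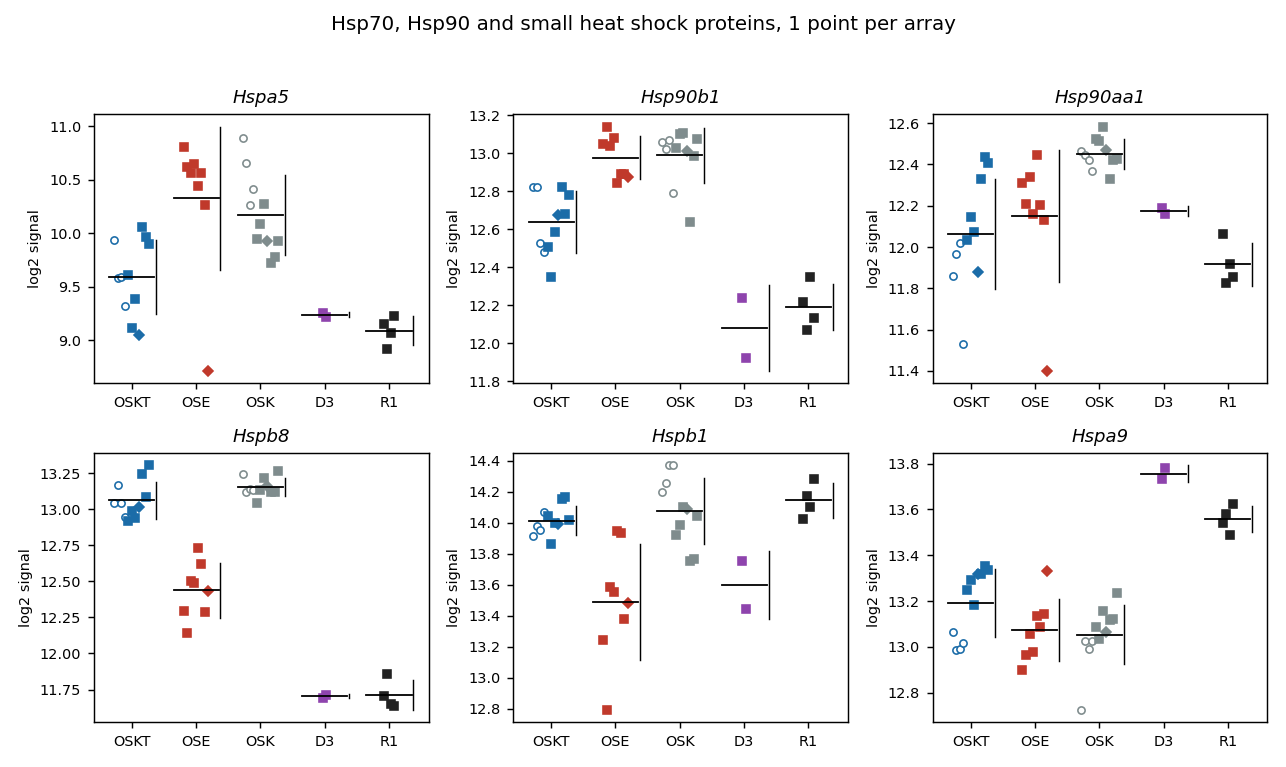
Log2 signal (y axis) of 6 heat shock genes on every array, by group (x axis); open circles are OSKT and OSK clones 1 to 4, diamonds clone 8 of each iPS set, squares the other arrays, horizontal lines the group means and vertical lines 1 SD to each side. Hspb8 separates all iPS clones from D3 and R1, and the Hspa5 value of OSE clone 8 (8.71) lies below the other OSE clones (10.26 to 10.81).

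The mitochondrial chaperones moved in opposite directions against R1. Hspa9, the mitochondrial Hsp70 that pulls proteins into the matrix, had 12.98, 13.25 and 13.35 in OSKT, 12.90, 13.07 and 13.33 in OSE, and 12.73, 13.06 and 13.24 in OSK (lowest, median and highest). It had 13.73 and 13.78 in D3 and 13.54, 13.58, 13.49 and 13.63 in R1. No iPS clone reached the lowest R1 array. Hspa9 fell by 0.37 in OSKT (SE 0.08, adjusted p = 8.94e-05), 0.48 in OSE (SE 0.08, adjusted p = 2.59e-06) and 0.50 in OSK (SE 0.08, adjusted p = 6.27e-07), and with near-identical arrays averaged the OSKT call was lost (adjusted p = 0.083). Its difference of 0.14 between OSKT and OSK (adjusted p = 0.0478) was lost in 14 of 22 fits that left out 1 array.

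Hspd1, the Hsp60 chaperonin of the matrix, had 13.11, 13.46 and 13.66 in OSKT, 13.29, 13.87 and 13.96 in OSE, and 13.19, 13.44 and 13.78 in OSK, against 13.13 and 12.97 in D3 and 13.08, 13.07, 12.95 and 13.08 in R1. Every iPS clone lay above the highest R1 array. The difference from R1 was 0.39 in OSKT (SE 0.10, adjusted p = 0.00125), 0.75 in OSE (SE 0.10, adjusted p = 1.67e-07) and 0.40 in OSK (SE 0.10, adjusted p = 0.000884). OSE exceeded OSK by 0.35 (SE 0.08, adjusted p = 0.000545), with 7 of 8 clones over the OSK mean. Both OSE calls held with near-identical arrays averaged, and the OSKT and OSK calls against R1 did not (adjusted p = 0.14 and 0.18).

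Of 12 genes on the list of mitochondrial chaperones and proteases 9 were tested, and 5 were higher and 3 lower in OSKT against R1, 3 and 4 in OSE against R1, and 4 and 2 in OSK against R1. Trap1, the mitochondrial Hsp90, fell by 0.57 in OSKT (adjusted p = 0.00694), 0.86 in OSE (adjusted p = 0.000149) and 0.75 in OSK (adjusted p = 0.000508). The matrix protease genes Clpp and Clpx rose by 0.26 and 0.27 in OSKT, 0.32 and 0.27 in OSE, and 0.20 and 0.30 in OSK. Dnaja3, the J protein of the matrix, rose by 0.16 in OSKT (adjusted p = 0.0329) and 0.20 in OSK (adjusted p = 0.00905), and turned to -0.029 and -0.069 under common-median scaling. The list counted 1 higher and 2 lower in OSKT against OSK and 2 higher and 1 lower in OSE against OSK. None of its genes passed in D3 against R1, where the members Hspa9 and Hspd1 differed by 0.20 and 0.01 (adjusted p = 0.31 and 0.985).

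Among the tested cytosolic Hsp70 and Hsp110 genes, which were Hsph1, Hspa4 and Hspa2, Hsph1 rose most against R1. Hspa8, Hspa1a and Hspa1b were not analysed here. Hsph1, a Hsp110 nucleotide exchange factor, had 12.25, 12.40 and 12.67 in OSKT, 12.47, 12.99 and 13.16 in OSE, and 11.75, 12.38 and 12.80 in OSK, with 12.15 and 12.16 in D3 and 11.80, 11.96, 11.72 and 11.92 in R1. OSKT and OSE clones lay above all R1 arrays, and 2 of the 11 OSK clones lay within the R1 range. The difference from R1 was 0.58 in OSKT (SE 0.15, adjusted p = 0.000948), 1.05 in OSE (SE 0.15, 2.07-fold, adjusted p = 3.46e-07) and 0.52 in OSK (SE 0.15, adjusted p = 0.00269). OSE exceeded OSK by 0.53 (SE 0.12, adjusted p = 0.000333), with 8 of 8 clones over the OSK mean. The OSE calls held with near-identical arrays averaged.

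Hspa4, another Hsp110 protein, rose by 0.39 in OSE (adjusted p = 0.00481) and 0.34 in OSK against R1 (adjusted p = 0.0115), and its difference in OSKT was 0.13 (adjusted p = 0.325). The OSK call was lost without R1 replicate 2. Hspa2, an Hsp70 that mouse spermatogenesis requires, averaged 10.21 ± 0.31 in OSKT, 10.06 ± 0.14 in OSE, 10.36 ± 0.10 in OSK, 9.57 ± 0.03 in D3 and 9.89 ± 0.12 in R1. It rose by 0.32 in OSKT (adjusted p = 0.019) and 0.47 in OSK against R1 (adjusted p = 0.000783), and fell by 0.30 in OSE against OSK (adjusted p = 0.00688). OSKT clones 1 to 4 averaged 10.56 and clones 5 to 11 averaged 10.01, against 10.44 and 10.32 in OSK. With clones 5 to 11 alone, OSKT differed from R1 by 0.12 (adjusted p = 0.25) and from OSK by -0.31 (adjusted p = 0.0014). Without R1 replicate 2 the OSKT call was lost. No call of Hspa4 or Hspa2 held with near-identical arrays averaged. Over the 5 tested genes of the Hsp70 list, 2 were higher and 1 lower in OSKT against R1, 3 and 1 in OSE, and 4 and 1 in OSK. In this list 1 was higher and 1 lower in OSKT against OSK and in OSE against OSK, and none passed in D3 against R1.

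The cytosolic Hsp90 gene and its partners differed from each other. Hsp90aa1, the stress-inducible Hsp90, averaged 12.06 ± 0.27 in OSKT, 12.15 ± 0.32 in OSE, 12.45 ± 0.07 in OSK, 12.18 ± 0.02 in D3 and 11.92 ± 0.11 in R1. It rose by 0.54 in OSK against R1 (SE 0.12, adjusted p = 0.000409, above the R1 mean in 11 of 11 clones). It was lower than in OSK by 0.39 in OSKT (SE 0.09, adjusted p = 0.00103) and by 0.30 in OSE (SE 0.10, adjusted p = 0.0118) on the log2 scale, and the OSE call was lost when clone 8 of all iPS sets was left out. Ahsa1, which stimulates the Hsp90 ATPase, had 12.37, 12.59 and 12.94 in OSKT, 12.26, 12.69 and 12.91 in OSE, and 12.44, 12.62 and 12.83 in OSK, against 11.97 and 11.99 in D3 and a mean of 12.09 ± 0.07 over the 4 R1 arrays. No iPS clone overlapped with R1. The Ahsa1 difference from R1 was 0.51 in OSKT, 0.58 in OSE and 0.54 in OSK (SE 0.09, 0.10 and 0.09, adjusted p = 1.17e-05, 2.7e-06 and 5.06e-06). With near-identical arrays averaged the OSE call was lost (adjusted p = 0.056). Stip1, the adaptor that joins Hsp70 to Hsp90, rose by 0.23 in OSKT against R1 (adjusted p = 0.0013).

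Among Hsp90 co-chaperones outside the membership rule, 22 of 23 were tested. In OSKT against OSK 10 were higher and 2 lower, with a median difference of 0.15 against 0.00 for all features. The lower genes were Sugt1, which links Hsp90 to kinetochore and immune receptor clients, by 1.01 on the log2 scale (adjusted p = 7.7e-06), and Ptges3, the p23 co-chaperone, by 0.46 (adjusted p = 0.00338). In OSE against OSK 6 were higher and 3 lower, with the myosin chaperone Unc45a higher by 0.50 (adjusted p = 1.3e-07) and Cdc37, which brings kinases to Hsp90, by 0.46 (adjusted p = 1.27e-07). Against R1, 12 were higher and 4 lower in OSKT, 9 and 3 in OSE, and 9 and 3 in OSK. Ppid, the cyclophilin partner of Hsp90, rose by 0.44 in OSKT, 0.83 in OSE and 0.46 in OSK (adjusted p = 5.54e-06, 3.8e-11 and 2.61e-06). Stub1, a ubiquitin ligase for chaperone clients, fell by 0.45 in OSKT, 0.29 in OSE and 0.40 in OSK (adjusted p = 7.91e-07, 0.000631 and 5.87e-06). In D3 against R1, Fkbp4, Ppp5c and Ruvbl1 were higher.

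Of 9 tested Hsp70 cofactors outside the rule, 1 was higher and 2 lower in OSKT against OSK, and 3 and 2 in OSE against OSK. St13, the Hip protein that stabilises Hsp70 with its client, rose by 0.89 in OSE and 0.89 in OSK against R1 (adjusted p = 2.41e-05 and 1.45e-05), and OSKT was lower than OSK by 0.62 on the log2 scale (adjusted p = 0.00011). Against R1 the list counted 2 higher and 3 lower in OSKT, 2 and 2 in OSE, and 2 and 2 in OSK, and D3 had Hyou1 and Sgta higher.

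The small heat shock gene Hspb8 separated iPS clones from ES cells without overlap. Hspb8, which works with Bag3 to send misfolded proteins to autophagy, had 12.92, 13.04 and 13.30 in OSKT, 12.15, 12.46 and 12.73 in OSE, and 13.04, 13.14 and 13.27 in OSK. It had 11.69 and 11.71 in D3 and 11.70, 11.86, 11.65 and 11.64 in R1. All 30 iPS clones lay above all ES arrays, and OSE clones lay below the OSK range without overlap. The difference from R1 was 1.35 in OSKT (SE 0.07, 2.55-fold, adjusted p = 1.91e-17), 0.73 in OSE (SE 0.08, 1.65-fold, adjusted p = 5.24e-10) and 1.44 in OSK (SE 0.07, 2.72-fold, adjusted p = 3.38e-18). OSE was lower than OSK by 0.72 on the log2 scale (SE 0.06, adjusted p = 4.08e-12), and OSKT differed from OSK by -0.09 (95% interval -0.20 to 0.01). D3 differed from R1 by -0.01 (95% interval -0.22 to 0.20). The Hspb8 call in OSE against OSK held with near-identical arrays averaged. In that fit R1 is 1 sample with no spread of its own, which limits the calls against it.

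Hspb1, the Hsp25 protein that guards actin filaments, was lower than R1 in OSE clones, where Hspb8 was higher. It had 13.86, 14.00 and 14.17 in OSKT, 12.80, 13.52 and 13.94 in OSE, and 13.75, 14.09 and 14.37 in OSK, with 13.75 and 13.44 in D3 and 14.02, 14.17, 14.10 and 14.28 in R1. OSE clones lay below the R1 range and overlapped with OSK. Hspb1 fell by 0.65 in OSE against R1 (SE 0.13, adjusted p = 6.59e-05) and by 0.59 in OSE against OSK (SE 0.10, adjusted p = 1.15e-05), and both calls held with near-identical arrays averaged. In D3 it was lower than in R1 by 0.55 on the log2 scale without passing (adjusted p = 0.0582). Of the other small heat shock genes, Hspb2 passed in no comparison.

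The genes of the TRiC chaperonin did not move together. Of 9 genes, 1 was higher and 3 lower in OSKT against OSK, 2 and 1 in OSE against OSK, 2 and 1 in OSKT against R1, 4 and 2 in OSE against R1, and 5 and 0 in OSK against R1. Their median difference in these comparisons was -0.10, 0.06, 0.12, 0.09 and 0.18, and none passed in D3 against R1. In the same order, 35.5%, 45.8%, 54.3%, 58.7% and 53.8% of all features changed, and 9.73% did in D3 against R1. Tcp1 passed in no comparison, and its difference was -0.04 in OSKT against OSK (95% interval -0.10 to 0.02), 0.06 in OSE against OSK (-0.01 to 0.13) and 0.03 in OSK against R1 (-0.06 to 0.12). In other settings it did pass: under common-median scaling at -0.20 in OSK against R1 (adjusted p = 0.0195) and 0.14 in OSE against OSK (adjusted p = 0.0393), with OSK clones 5 to 11 alone at 0.09 in OSE against OSK (adjusted p = 0.0414), and in OSE against R1 at 0.10 with array weights and 0.11 with the replicate block (adjusted p = 0.00957 and 0.0255).

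Cct2 had 10.02, 10.19 and 10.89 in OSKT, 10.61, 10.94 and 11.06 in OSE, and 10.53, 10.84 and 11.05 in OSK, with 10.31 and 10.27 in D3 and 10.07, 10.21, 10.31 and 10.18 in R1. OSE and OSK clones lay above R1 without overlap, while OSKT clones spanned both ranges. The difference from R1 was 0.72 in OSE (SE 0.12, adjusted p = 6.17e-06) and 0.62 in OSK (SE 0.12, adjusted p = 3.66e-05), and in OSKT it was 0.14 (adjusted p = 0.334). OSKT was lower than OSK by 0.48 on the log2 scale (SE 0.09, adjusted p = 6.52e-05), with 10 of 11 clones under the OSK mean. With near-identical arrays averaged the OSK call against R1 was lost (adjusted p = 0.081). Cct7 showed the same order, with 0.76 in OSE and 0.71 in OSK against R1 (adjusted p = 0.00628 and 0.00829) and OSKT lower than OSK by 0.56 on the log2 scale (adjusted p = 0.00758), but no Cct7 call held with near-identical arrays averaged.

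Cct3 went against them, with OSKT higher than OSK by 0.20 (SE 0.04, adjusted p = 0.000176, in 11 of 11 clones). Cct4 fell by 0.22 in OSKT and 0.23 in OSE against R1 (adjusted p = 0.00352 and 0.00354), and both calls were lost without R1 replicate 3, the highest R1 array at 15.27. Cct6a rose by 0.28 in OSKT, 0.40 in OSE and 0.22 in OSK against R1 (adjusted p = 0.000286, 3.71e-06 and 0.00435), with no overlap with R1. Cct6b, the testis form of the same subunit in the mouse, had 7.85, 8.18 and 8.45 in OSKT, 6.71, 7.06 and 7.55 in OSE, and 7.52, 8.03 and 8.46 in OSK, against 7.66 and 7.56 in D3 and 7.62, 7.70, 7.72 and 7.59 in R1. All OSE clones lay below the R1 arrays, and 5 of 8 were above background. OSE was lower than OSK by 0.93 on the log2 scale (SE 0.11, adjusted p = 2.65e-08) and than R1 by 0.57 (SE 0.15, adjusted p = 0.00114). OSKT and OSK exceeded R1 by 0.50 and 0.36 (adjusted p = 0.00278 and 0.032), and the OSK call was lost without any 1 of OSK clones 5, 6 and 8 or R1 replicates 1, 2 and 4. Cct8 was lower in OSKT than in OSK by 0.16 on the log2 scale (adjusted p = 0.0166), higher in OSE than in OSK by 0.14 (adjusted p = 0.0411), and higher than R1 in OSE and OSK by 0.32 and 0.18 (adjusted p = 0.000459 and 0.0368). No Cct8 call held with near-identical arrays averaged. Cct5 did not pass in any comparison, with a 95% interval of -1.10 to 0.22 in OSKT against OSK.

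**Figure D3:**
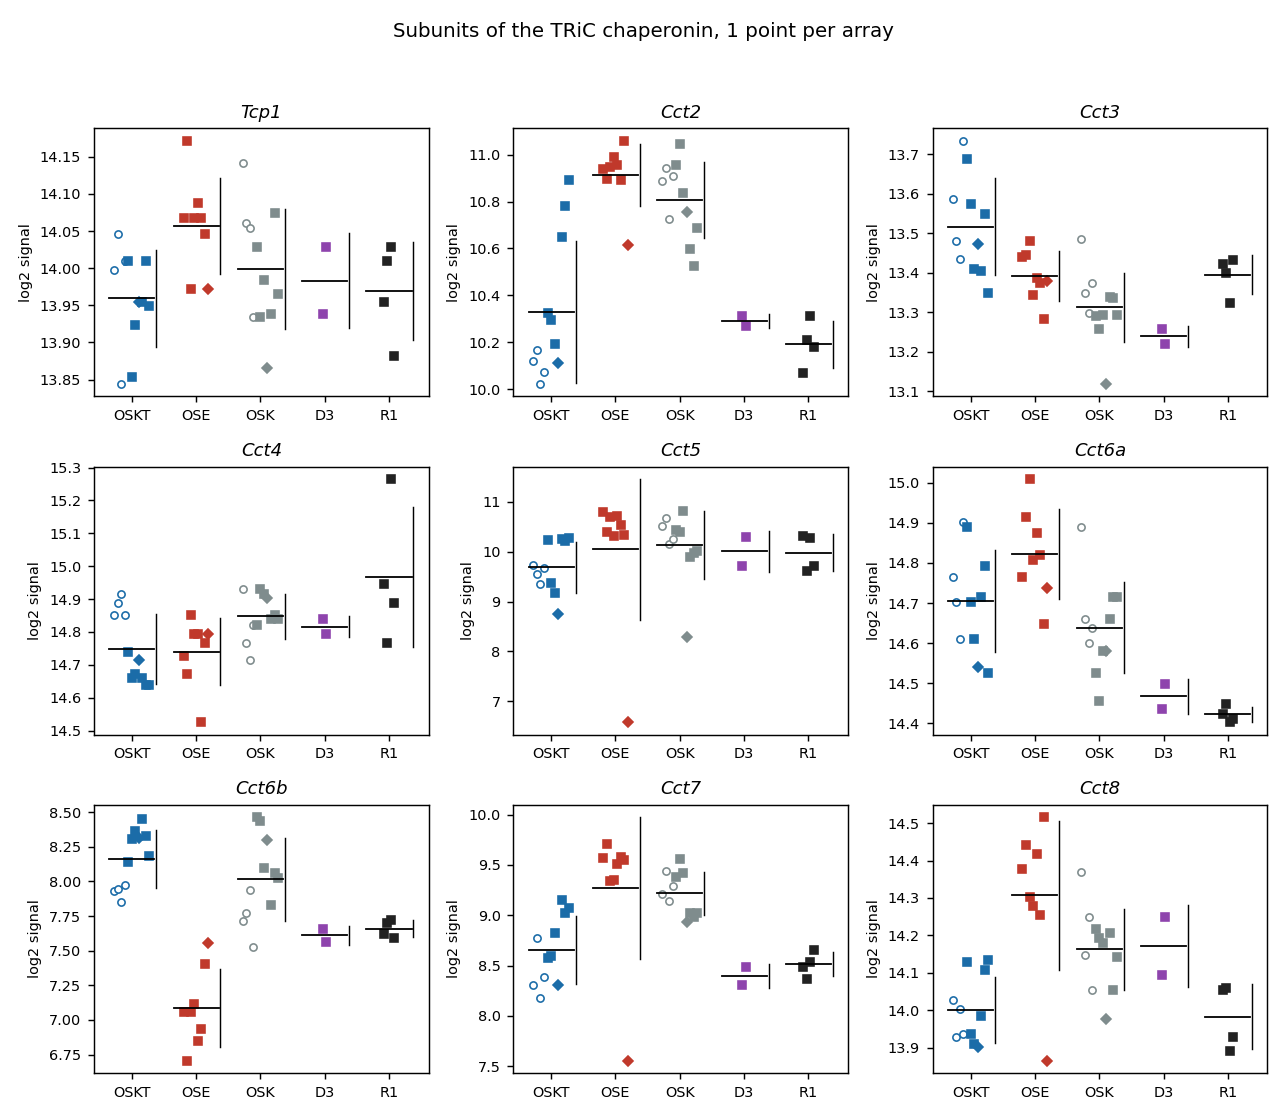
Log2 signal (y axis, a scale of its own for each gene) of the 9 TRiC genes on every array, by group (x axis), with symbols and lines as in the plot of heat shock genes. Clone 8 of OSE, the diamond, lies far below the other OSE clones for Cct5 (6.58) and Cct7 (7.56).

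Of the prefoldin genes, which bring clients to TRiC, all 6 were tested. In OSKT against OSK 1 was higher and 2 lower, in OSE against OSK 0 and 1, in OSKT against R1 0 and 1, and in OSE and OSK against R1 1 and 1 each. Pfdn6 was the lower gene in each comparison with R1, by 0.33 in OSKT, 0.55 in OSE and 0.48 in OSK on the log2 scale (adjusted p = 5.13e-06, 5.02e-10 and 4.94e-09).

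The J proteins held the widest differences. Of 8 tested type B genes, 2 were higher and 1 lower in OSKT against OSK, 2 and 4 in OSE against OSK, 1 and 2 in OSKT against R1, 1 and 3 in OSE against R1, 0 and 2 in OSK against R1, and 0 and 1 in D3 against R1. Of 20 tested type C genes the counts were 6 and 1, 2 and 5, 3 and 6, 2 and 9, 1 and 9, and 1 and 2 in the same order. In that order, 35.5%, 45.8%, 54.3%, 58.7%, 53.8% and 9.73% of all features changed. The type B counts include Dnajb4 as higher in OSE against OSK and as lower in OSKT and OSK against R1. Dnajb4 met the filter only through OSE and R1 arrays. Type C genes had a median difference of -0.01 in OSKT, -0.08 in OSE and -0.13 in OSK against R1, where the median over all features was within 0.02 of 0.

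Dnajc5g, a cysteine string protein of the testis, was highest in OSKT clones and near the detection limit in OSE and D3. It had 8.41, 9.56 and 9.80 in OSKT, 5.57, 6.18 and 7.13 in OSE, and 7.26, 7.75 and 8.61 in OSK, with 5.53 and 5.81 in D3 and 7.52, 7.26, 7.43 and 6.93 in R1. It was above background on 11 of 11 OSKT, 1 of 8 OSE, 11 of 11 OSK, 0 of 2 D3 and 3 of 4 R1 arrays. OSKT clones lay above all R1 arrays, and OSE clones lay below all OSK clones. The difference was 1.47 in OSKT against OSK (SE 0.19, 2.77-fold, adjusted p = 7.85e-07), -1.54 in OSE against OSK (SE 0.21, adjusted p = 2.63e-07), 1.97 in OSKT against R1 (SE 0.26, 3.93-fold, adjusted p = 7.27e-08) and -1.03 in OSE against R1 (SE 0.28, adjusted p = 0.00162). The OSE values are fitted differences in which 7 of 8 OSE signals were not well above background. D3 was at least 1.24-fold lower than R1, a bound from the lowest signal above background on each array (adjusted p = 0.00573). The D3 call was lost without D3 replicate 1, and the OSE call against R1 with near-identical arrays averaged (adjusted p = 0.14).

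The OSKT excess of Dnajc5g lay in the higher-numbered clones. OSKT clones 1 to 4 averaged 8.58 (8.41 to 8.80) and clones 5 to 11 averaged 9.64 (9.48 to 9.80), against 8.24 (8.01 to 8.61) and 7.53 (7.26 to 7.84) in OSK. Within clones 1 to 4 the difference between OSKT and OSK was 0.34 (adjusted p = 0.38). In the higher-numbered range it was 2.12 (adjusted p = 1.7e-10). Dnajb13, a radial spoke protein of cilia and sperm tails, was also highest in OSKT clones 5 to 11. OSKT clones 1 to 4 averaged 9.35 and clones 5 to 11 averaged 10.51, against 9.13 and 9.48 in OSK. Its difference between OSKT and OSK was 0.74 over all clones (SE 0.16, adjusted p = 0.000606). It was 0.23 in clones 1 to 4 (adjusted p = 0.216) and 1.03 in clones 5 to 11 (adjusted p = 6.54e-08). OSE fell by 1.00 against OSK (SE 0.18, adjusted p = 2.16e-05) and by 0.86 against R1 (SE 0.23, adjusted p = 0.00187), and OSE clones overlapped with neither group. OSKT exceeded R1 by 0.87 (SE 0.22, adjusted p = 0.00118, in 10 of 11 clones). The part of the fibroblast and lineage markers, which also divide the clones in this way, was not tested.

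Dnajc6, auxilin, uncoats clathrin vesicles together with Hsp70. It had 9.85, 10.42 and 10.57 in OSKT, 8.71, 8.89 and 9.05 in OSE, and 9.89, 10.10 and 10.30 in OSK, with 10.00 and 10.02 in D3 and 10.75, 10.76, 10.69 and 10.80 in R1. R1 lay above every other array and OSE below every other array. The difference from R1 was -0.43 in OSKT (SE 0.11, adjusted p = 0.000752), -1.85 in OSE (SE 0.11, 3.6-fold lower, adjusted p = 2.53e-16), -0.65 in OSK (SE 0.11, adjusted p = 2.42e-06) and -0.74 in D3 (SE 0.16, adjusted p = 0.00148). OSE was lower than OSK by 1.19 on the log2 scale (SE 0.08, adjusted p = 9.04e-14). OSKT exceeded OSK by 0.22 (adjusted p = 0.0218), with -0.04 within clones 1 to 4 and 0.37 within clones 5 to 11 (adjusted p = 0.839 and 4.43e-05). The OSE calls and the OSK call against R1 held with near-identical arrays averaged.

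Dnajc7, which passes clients between Hsp70 and Hsp90, had 13.49, 13.85 and 14.01 in OSKT, 13.02, 13.35 and 13.59 in OSE, and 13.22, 13.55 and 13.71 in OSK. It had 14.45 and 14.35 in D3 and 14.47, 14.50, 14.33 and 14.55 in R1. No iPS clone overlapped with R1. Dnajc7 fell against R1 by 0.66 in OSKT (SE 0.09, adjusted p = 4.99e-08), 1.11 in OSE (SE 0.09, 2.17-fold lower, adjusted p = 1.05e-12) and 0.91 in OSK (SE 0.09, adjusted p = 4.8e-11), and these calls held with near-identical arrays averaged. Dnajc21, which serves the maturation of the large ribosomal subunit, had 11.88, 12.27 and 12.51 in OSKT, 11.50, 11.72 and 11.96 in OSE, and 11.73, 11.98 and 12.29 in OSK, with 12.46 and 12.55 in D3 and 12.65, 12.56, 12.70 and 12.65 in R1. Its iPS ranges also lay below the R1 arrays, by 0.39 in OSKT, 0.93 in OSE and 0.62 in OSK on the log2 scale (adjusted p = 0.00209, 7.18e-09 and 6.04e-06). Against OSK, Dnajc7 and Dnajc21 were higher in OSKT by 0.25 and 0.23 (adjusted p = 0.00253 and 0.0184) and lower in OSE by 0.20 and 0.31 on the log2 scale (adjusted p = 0.0155 and 0.00311), the Dnajc7 call in OSE being lost without OSE clone 7. The D3 differences were -0.06 for Dnajc7 and -0.14 for Dnajc21 (adjusted p = 0.858 and 0.701).

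Dnajc22 fell against R1 by 0.47 in OSKT, 0.52 in OSE and 0.56 in OSK (adjusted p = 0.00106, 0.000523 and 0.000143) and was above background on 3 of 11 OSKT, 2 of 8 OSE, 2 of 11 OSK, 2 of 2 D3 and 4 of 4 R1 arrays, so that most iPS signals behind these fitted differences were not well above background. Dnajc2, a ribosome-bound J protein, was higher in OSKT than in OSK by 0.25 (adjusted p = 0.000907, in 11 of 11 clones). Dnajc27, whose protein joins a Rab-like GTPase to a J domain, was the member that rose in D3 against R1, by 0.48 (SE 0.14, adjusted p = 0.0175). It also rose by 0.38 in OSE against OSK (adjusted p = 4.78e-05) and 0.22 in OSKT against OSK (adjusted p = 0.00996), and fell by 0.32 in OSK against R1 (adjusted p = 0.00345). The D3 call was lost without either D3 replicate.

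Among type A and B genes, Dnajb1, the Hsp40 that serves cytosolic Hsp70, had 12.32, 12.52 and 12.88 in OSKT, 12.94, 13.21 and 13.36 in OSE, and 12.16, 12.68 and 12.94 in OSK, with 12.26 and 12.39 in D3 and 12.61, 12.47, 12.56 and 12.59 in R1. OSE clones lay above all R1 arrays and met the highest OSK clone. Dnajb1 rose by 0.57 in OSE against OSK (SE 0.09, adjusted p = 3.5e-06, in 8 of 8 clones) and by 0.63 against R1 (SE 0.12, adjusted p = 2.09e-05). Both calls held with near-identical arrays averaged. Dnaja2 and Dnaja4, Hsp40 proteins of the cytosol, were higher in OSE than in OSK by 0.58 (adjusted p = 0.000587) and 0.57 (adjusted p = 0.00631), each in 7 of 8 clones, and neither held when averaged (adjusted p = 0.12 and 0.078). Dnaja4 was above background on 7 of 8 OSE, 7 of 11 OSK and 6 of 11 OSKT arrays. It averaged 7.73 in OSE, 7.57 in R1, 7.55 in OSK clones 1 to 4 and 6.94 in OSK clones 5 to 11. The latter clones were lower than R1 by 0.63 on the log2 scale (adjusted p = 0.00146). Dnajb4 was above background on 2 of 8 OSE and 2 of 4 R1 arrays and on no OSKT, OSK or D3 array. It thus met the filter of 4 arrays only through the groups where it was high. Its calls as lower in OSKT and OSK than in R1 and as higher in OSE than in OSK are therefore no support for a difference, and they have no fold.

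Dnajb12, a J protein of the ER membrane, averaged 9.30 ± 0.20 in OSKT, 8.75 ± 0.23 in OSE, 8.96 ± 0.15 in OSK, 9.85 ± 0.19 in D3 and 9.51 ± 0.09 in R1. It fell against R1 by 0.77 in OSE (adjusted p = 3.73e-07) and 0.55 in OSK (adjusted p = 3.74e-05), and was higher in OSKT than in OSK by 0.35 (adjusted p = 0.000709). Dnajb6, which keeps proteins from aggregating and is needed for the mouse placenta, fell in OSE against OSK by 0.40 (adjusted p = 0.0134). That call was lost with OSK clones 5 to 11 alone. Dnajb5 was lower in OSKT than in OSK by 0.14 on the log2 scale (adjusted p = 0.0102) and in D3 than in R1 by 0.34 (adjusted p = 0.0126), and the D3 call was lost without either D3 replicate. Dnajb3, a testis J protein, was at least 1.05-fold lower in OSE, where it was above background on 0 of 8 arrays, than in R1 (3 of 4 arrays, adjusted p = 0.0018). It fell by 0.43 in OSKT against R1 (adjusted p = 0.0187, a fitted difference with only 2 of 11 OSKT arrays above background), a call lost without R1 replicate 2 or 3.

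**Figure D4:**
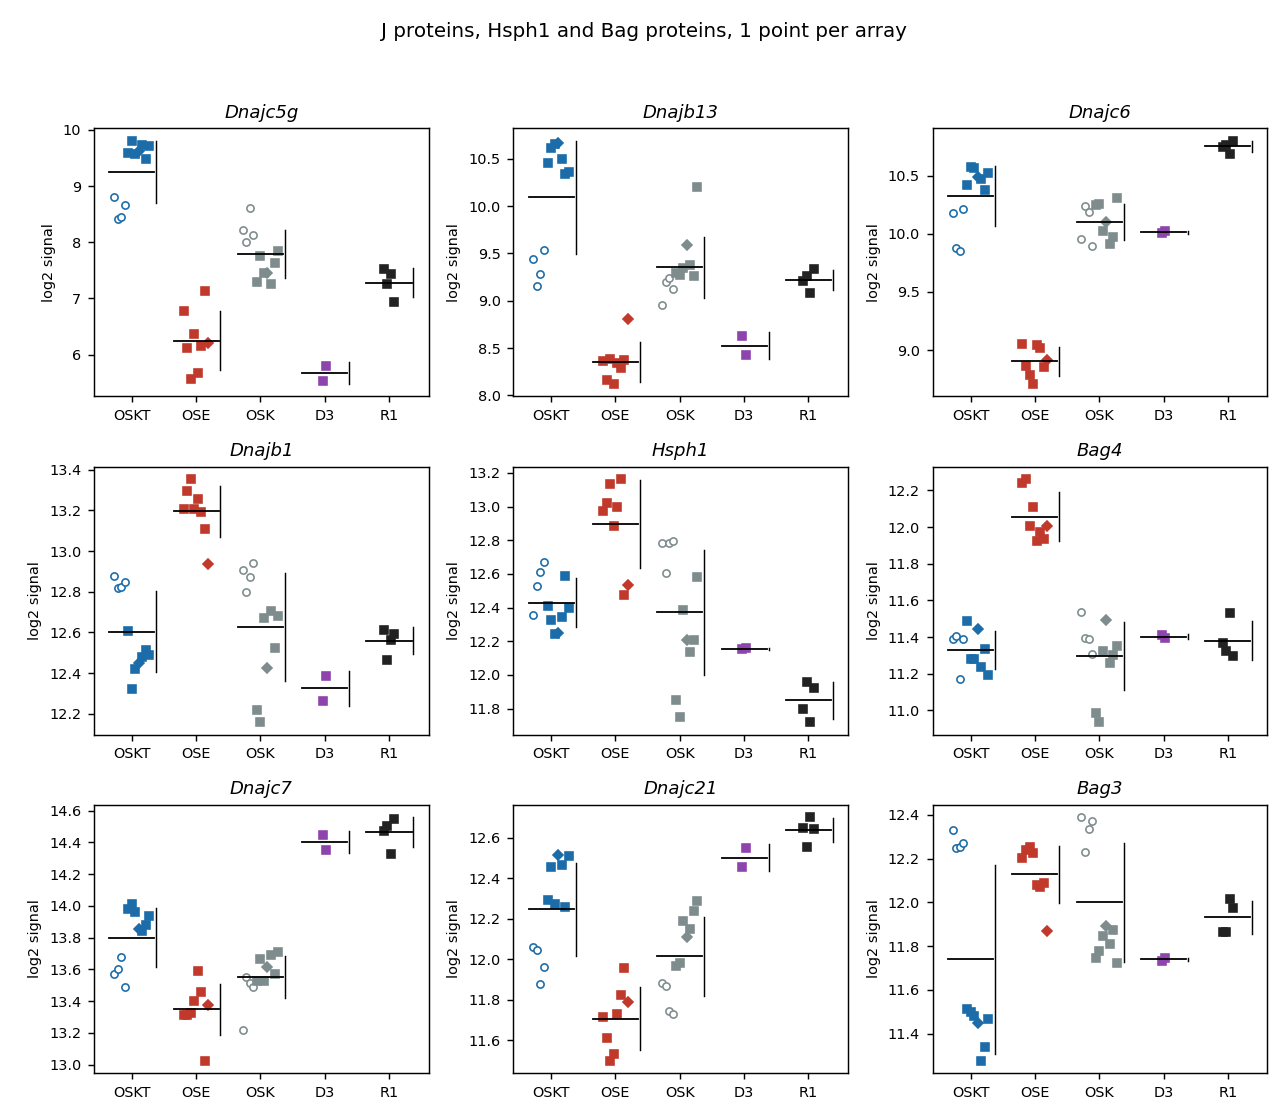
Log2 signal (y axis, a scale of its own for each gene) of 6 J protein genes, Hsph1, Bag4 and Bag3 on every array, by group (x axis), with symbols and lines as in the plot of heat shock genes. OSKT clones 1 to 4 (open circles) lie below clones 5 to 11 for Dnajc5g and Dnajb13 and above them for Bag3, and OSE clones lie above all other arrays for Bag4.

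Of the 6 Bag genes, 1 was higher and 1 lower in OSKT against R1, 4 and 0 in OSE, and 3 and 0 in OSK. In OSKT against OSK 0 were higher and 2 lower, and in OSE against OSK 2 and 0. Of all features, 54.3%, 58.7% and 53.8% changed in OSKT, OSE and OSK against R1. Against OSK the shares were 35.5% in OSKT and 45.8% in OSE. Bag4, which also silences tumour necrosis factor receptors, had 11.17, 11.33 and 11.49 in OSKT, 11.92 to 12.26 in OSE (mean 12.06 ± 0.13), and 10.93, 11.32 and 11.54 in OSK, with 11.41 and 11.39 in D3 and 11.37, 11.32, 11.53 and 11.30 in R1. OSE clones lay above every other array, and the other groups overlapped. Bag4 rose by 0.76 in OSE against OSK (SE 0.07, 1.69-fold, adjusted p = 1.64e-11) and by 0.68 against R1 (SE 0.09, 1.6-fold, adjusted p = 2.87e-08), and both calls held with near-identical arrays averaged. OSKT differed from OSK by 0.03 (adjusted p = 0.732).

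Bag2, an inhibitor of the ubiquitin ligase of Hsp70 clients, had 6.92, 7.60 and 8.49 in OSKT, 7.44, 9.25 and 9.56 in OSE, and 7.38, 8.21 and 9.12 in OSK, with 7.38 and 7.42 in D3 and 7.54, 7.28, 7.58 and 7.75 in R1. The iPS groups overlapped with R1 and with each other. Bag2 rose by 0.67 in OSE against OSK (SE 0.25, adjusted p = 0.0281), and by 1.45 in OSE (SE 0.33, adjusted p = 0.00029) and 0.78 in OSK against R1 (SE 0.31, adjusted p = 0.0344). The call against OSK was lost without any 1 of OSE clones 3, 4, 5 and 6 or OSK clone 8. The OSK call against R1 was lost without any 1 of OSK clones 1, 2 and 4 or R1 replicates 1, 2 and 3, and none of the 3 held with near-identical arrays averaged. Bag5 averaged 9.79 ± 0.24 in OSKT, 10.24 ± 0.09 in OSE, 10.15 ± 0.12 in OSK, 9.93 ± 0.02 in D3 and 9.80 ± 0.02 in R1. It rose by 0.45 in OSE and 0.35 in OSK against R1 (adjusted p = 0.000188 and 0.00162), and OSKT was lower than OSK by 0.36 on the log2 scale (adjusted p = 0.0001), with 0.00029 within clones 1 to 4 (adjusted p = 0.998). Bag1 rose by 0.18 in OSKT, 0.19 in OSE and 0.20 in OSK against R1, and turned to -0.0027 in OSK under common-median scaling. Bag6, which guides tail-anchored proteins to the ER, fell by 0.20 in OSKT against R1 (adjusted p = 0.000963) and by 0.14 against OSK (adjusted p = 0.00315).

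Bag3, the partner of Hspb8, passed in none of the 6 comparisons over all clones, yet its clones fell into separate ranges. OSKT clones 1 to 4 averaged 12.28 (12.25 to 12.33) and clones 5 to 11 averaged 11.43 (11.28 to 11.51), against 12.33 (12.23 to 12.39) and 11.81 (11.72 to 11.89) in OSK. OSE clones averaged 12.13 ± 0.13, D3 11.74 ± 0.01 and R1 11.93 ± 0.08. Within clones 5 to 11, OSKT was lower than OSK by 0.38 on the log2 scale (adjusted p = 3.23e-06), and within clones 1 to 4 the difference was -0.06 (adjusted p = 0.643). Bag2 and Dnajb1 were likewise higher in clones 1 to 4 than in clones 5 to 11, with Bag2 at 8.45 against 7.35 in OSKT and 8.88 against 8.00 in OSK, and Dnajb1 at 12.84 against 12.47 in OSKT and 12.88 against 12.48 in OSK. These differences between clone ranges were noticed in the data and are given as values with no test.

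The genes known as heat shock factor targets went both ways in OSE against OSK, and most that changed against R1 were higher under quantile normalization. Of 20 on the list 13 were tested, 9 of which are members. In OSE against OSK 5 were higher, namely Hsph1, Hspd1, Dnajb1, Chordc1 and Fkbp4, and 3 lower, namely Hsp90aa1, Hspb1 and Hspb8. In OSKT against OSK 3 were higher and 1 lower, against R1 7 were higher and 1 lower in OSKT, 7 and 1 in OSE, and 6 and 1 in OSK, and in D3 1 and 1. Of all features, 26.4% were higher and 27.9% lower in OSKT, 28.7% and 29.9% in OSE, and 25.8% and 28% in OSK against R1. Common-median scaling ended the calls against R1 of Hsph1, Hsp90aa1, Hspd1 and Ahsa1 in OSK and of Hsph1 and Stip1 in OSKT. In OSE against R1 it ended no call of a member on this list. Under quantile normalization the median difference of the list was 0.25 in OSKT, 0.28 in OSE and 0.35 in OSK against R1, where the median over all features was within 0.02 of 0. Beside these, 4 of 6 heat shock factor genes and regulators were tested, of which Hsf2 fell by 0.53 in OSKT against OSK (adjusted p = 0.00699) and Hsbp1 rose by 0.31 in OSE against OSK and 0.41 against R1 (adjusted p = 0.000291 and 0.000192). Of members with a promoter window, the heat shock element core lay in 6 of 11 that rose in OSE against OSK and 4 of 13 that fell. It lay in 25.8% of all members with a window and 17% of all genes. In OSKT against OSK it lay in 2 of 8 that rose and 1 of 9 that fell. Against R1 it lay in 5 of 14 that rose in OSKT, 5 of 17 in OSE and 5 of 18 in OSK. Of those that fell there, it lay in 1 of 7, 2 of 12 and 2 of 8. These counts include Dnajb4, which met the filter only through OSE and R1 arrays. It stands among those that rose in OSE against OSK and those that fell in OSKT and OSK against R1. Hsph1 and Hspb1, whose windows are printed above, both carry the core. The fibroblast markers moved with the OSE group, with 16 of 21 higher and 0 lower in OSE against OSK and 17 higher and 1 lower against R1, and their part in the OSE results was not tested.

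Scaling to a common median also ended calls of named members. Against R1 these were Cct6a, Dnaja3, Hspa2, Hsph1, Stip1 and Bag1 in OSKT, Bag1 and Cct8 in OSE, Ahsa1, Cct6a, Cct8, Dnaja3, Hspa2, Hspa4, Hspd1, Hsph1, Hsp90aa1, Bag1, Bag2 and Bag5 in OSK, and Dnajb5 in D3. Against OSK they were Bag6, Cct8 and Dnajb5 in OSKT, and Dnajb6, Dnajb12, Dnajc7, Dnajc21, Hsp90aa1 and Hspa2 in OSE. With near-identical arrays averaged, the calls that held in OSKT against OSK were Bag5, Cct2, Cct3, Dnajc2, Dnajc5g and Hsp90b1 (6 of 20), and in OSE against OSK 15 of 26, among them Bag4, Cct6b, Dnajb1, Dnajb13, Dnajc5g, Dnajc6, Hspb1, Hspb8, Hspd1 and Hsph1. Against R1 they were Ahsa1, Cct6a, Dnajc5g, Dnajc7, Hsp90b1 and Hspb8 in OSKT (6 of 26), 15 of 35 in OSE, and Ahsa1, Dnajc17, Dnajc21, Dnajc6, Dnajc7, Hsp90b1, Hspa9 and Hspb8 in OSK (8 of 31). D3 against R1 is then 1 sample against 1, so that fit says nothing of its calls.

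Of the 16 members without a test, 14 stood above background on none of the 36 arrays. These were Dnaja1, Dnajb7, Dnajb8, Dnajc1, Dnajc3, Dnajc9, Dnajc10, Dnajc15, Hspa1l, Hspa4l, Hspa12a, Hspa13, Hspa14 and Hspb7, and Hspa12b and Hspb3 were so on 2 arrays. Several of them, such as Dnaja1, are known as broadly expressed, so a dim probe does not show that a gene is silent. The symbols Dnajc19 and Dnajc28 had no measured probe, and Hspa8, Hspa1a, Hspa1b, Hsp90ab1, Hspe1 and Dnajb9 were not analysed here. The members that passed in no comparison were Bag3, Cct5, Dnajc12, Dnajc24, Dnajc5b, Hspb2 and Tcp1.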

How the data were processed

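RNA of 36 samples was hybridised to an Illumina bead array. The deposited intensities are per-probe signals on a linear scale, for which the submitters' processing notes name BeadStudio, version not given. Some values lie below 0, and what background was subtracted is not given in the sources used here. An unscaled and a scaled table were deposited by the authors, and the unscaled table was used here. Probes with all 36 values between -5.5 and 15.5 were taken as placeholders (5893 of 24613), which left 18720. The signals were background corrected (normexp, offset 16), quantile normalized and converted to log2 in R 4.3.3 with limma 3.58.1. A probe was above background past the 99th percentile of a normal distribution with the spread of the negative signals of its array (limits of 45.2 to 90.8). Features above background on at least 4 arrays were fitted with 1 mean per group over all 36 arrays (eBayes with trend, Benjamini-Hochberg over 10533 features, 1 probe per gene by the highest mean). Bag5 had a second measured probe, above background on 0 arrays.

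The members and gene lists were chosen with earlier results of these data known. Genes were named by a fixed list and by the 6 highest and 6 lowest called members of each comparison. The p-values measure the spread between these samples, which may not come from separate cultures. Results were recomputed from the authors' scaled values, with arrays brought to a common median, without normexp, with an offset of 50, with no filter on dim probes or a filter at 18 arrays, with only the groups compared, with array weights, with near-identical arrays averaged, within clone ranges, with the replicate number as a block, and with each array left out. Without OSK clones 1 to 4, and without clone 8 of every iPS set, were chosen after seeing the data. The fit was tested on simulated data. Motifs of the J domain were not searched, since no protein sequences were used here.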

Additional observations from a re-analysis of the deposited data

Results flagged for a closer look

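In each of 88 sets of values (a named member in OSE or R1) the most extreme array was set against the spread of the rest by Dixon's criterion, which chance passes in about 1 of 20 sets, and 11 passed. OSE clone 8 accounts for 10 of them. It was far below the other 7 OSE clones for Cct5 (6.58, others 10.32 to 10.80), Cct7 (7.56, others 9.34 to 9.71), Hspa5 (8.71, others 10.26 to 10.81), Dnaja2 (7.90, others 9.05 to 9.35), Dnajb6 (9.52, others 10.35 to 10.81) and Hsp90aa1 (11.40, others 12.13 to 12.45). It was also low for Dnajb4 (6.21, others 6.74 to 7.12), Cct8 (13.87, others 14.26 to 14.52) and Cct2 (10.61, others 10.89 to 11.06), and high for Dnajb13 (8.81, others 8.12 to 8.39). R1 replicate 3 was low for Hspd1 (12.95, others 13.07 to 13.08).

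OSE clone 8 had the lowest OSE signal for 23 of the 60 members and for 22.6% of all features, and the highest OSE signal for 16 of the 60. The highest signals were not counted over all features, so the 16 show nothing particular to the members. Clone 8 was also the lowest clone of OSKT and OSK for Cct5 (8.75 in OSKT, 6.58 in OSE and 8.28 in OSK), for Bag2 (6.92, 7.44 and 7.38) and for Cct8 (13.90, 13.87 and 13.98). It was the highest clone of all 3 sets for 1 member, Dnajc4 (8.80, 8.62 and 8.87). Of the 10533 features, 153 were lowest and 112 highest in clone 8 of all 3 sets. Over all 10533 features, the deviations of clone 8 from its group mean correlated at 0.51 between OSKT and OSE, 0.39 between OSKT and OSK and 0.59 between OSE and OSK. The labels give clone 8 of these sets nothing in common but the number. What sets clone 8 apart was not tested.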

How the results depend on the processing

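Averaging near-identical arrays lowered the number of changed members most, to 6 in OSKT against OSK, 15 in OSE against OSK, 6 in OSKT against R1, 15 in OSE against R1, 8 in OSK against R1 and 0 in D3 against R1 (limma, with 4 at an unadjusted p under 0.05 in D3). That fit has fewer samples, with 1 each for R1 and D3 assumed to vary like the iPS clones, so its D3 count decides nothing, and it ended 75 of the 122 gene results called for named members. In that fit the share of all features also fell, to 12.9% in OSKT against OSK (members 10%) and 28.8% in OSE against OSK (members 25%). Array weights gave 41 in OSKT against R1 (68.3%, against 67.2% of all features) and 18 in D3 against R1 (30%, against 33.8%). The fit of only the groups compared gave 15 in D3 against R1 (25%, against 31.8%), and the authors' scaled values 2 (3.33%, against 8.08%). Clones 1 to 4 alone gave 7 in OSKT against OSK (11.7%, against 12.2%). The cause was not tested. Scaling to a common median turned Dnaja3 (-0.029 in OSKT and -0.069 in OSK against R1), Bag1 (-0.0027), Cct8 (-0.040) and Tcp1 (-0.20, all in OSK against R1), and clones 1 to 4 alone turned Bag5 (0.00029) and Dnajc6 (-0.036) in OSKT against OSK. Common-median scaling ended 30 of the 122 called results and the authors' scaled values 11. No background correction ended 2, no filter 5, only the groups compared 6, and an offset of 50 or array weights 0. A stricter filter ended 0 of the 114 called results that it still tested, and says nothing of the others.

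Leaving out 1 array gave 19 to 25 changed members in OSKT against OSK, 23 to 30 in OSE against OSK, 21 to 26 in OSKT against R1, 32 to 39 in OSE against R1, 28 to 32 in OSK against R1 and 1 to 4 in D3 against R1, with 1 without D3 replicate 1. Leaving out an array ended 18 of the 122 called results in some fit. With the replicate number as a block the counts were 22, 28, 29, 41, 31 and 4 in the same order (all features 41%, 46.5%, 59.2%, 63.6%, 59.2% and 11%), and 5 called results were lost. The numbers share no stated source, and deviations of same-numbered OSKT and OSK clones correlated at 0.01 to 0.63 (9 of 11 over 0.1), so no pairing was assumed. Genes outside the membership rule were fitted in the main setting only. Signals near the detection limit (Dnajc5g in OSE and D3, Dnaja4 in OSK and OSKT, Dnajb3, Dnajb4, Dnajc22) were above background on only some arrays of a group or on none, which limits their differences.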
